A study of Mus musculus with 9 samples.

Results

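The genes described here encode the machinery that carries new proteins into the endoplasmic reticulum (ER) and attaches and trims their N-linked sugars. The set held 48 named genes in 7 role groups. The platform annotation paired 47 of them with at least 1 probe set of their own, and all 47 were among the 9697 genes tested. The gene Sec61g, a small subunit of the protein channel, is read only by a probe set that also names other genes, so it was not tested. Where several probe sets read a gene, the brightest on average was taken.

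RNA came from the quadriceps femoris of the thigh in 9 female mice, 1 array each, of the strain labelled C57Bl/6 HT transgenic, which over-expresses a self MHC class I protein in skeletal muscle. In this model, as generally described, a muscle creatine kinase promoter drives the activator of the class I transgene, and doxycycline keeps it off. Early mice (n = 3) came off doxycycline at 21 days of age and were killed at 35 days. Late mice (n = 3) came off it at 35 days and were killed at 50 days by their sample labels, while control mice (n = 3) stayed on it and were killed at 35 days. The treatment protocol describes the controls as carrying 1 transgene only, although their strain label is that of the induced mice. Late mice were thus older than both other groups, and in every late comparison age and induction cannot be told apart. Early and control mice were of 1 age and differed in the drug as well as in induction. By the treatment protocol, though not by the strain label, control mice also differed in genotype from both induced groups. In early against control, drug, induction and any difference in genotype cannot be told apart.

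A protein bound for secretion or a membrane is recognised by its signal sequence as it leaves the ribosome, is docked at the ER by the signal recognition particle and passes through the Sec61 channel. Signal peptidase then cuts the signal sequence off. Oligosaccharyltransferase moves a preassembled glycan from the lipid dolichol onto asparagines of the chain, and glucosidases and a glucosyltransferase trim and rebuild that glycan while the protein folds. Several of these genes are known targets of the unfolded protein response, which acts when the ER is overloaded. Muscle fibres use the pathway for receptors, channels, matrix and basement membrane proteins.

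Values are log2 expression as deposited, 1 array per mouse, and differences are on the same scale with the standard error (SE) of the fit. A gene was called when its p from limma's test, fitted to all 9 arrays and adjusted over the 9697 genes by Benjamini-Hochberg, was under 0.05. Array medians lay between 3.41 and 3.45. The class I gene H2-K1 checked the labels: its mean was 10.52 ± 0.34 in control, 14.66 ± 0.03 in early and 13.87 ± 0.66 in late muscle (SD, n = 3). All 12 tested fibre markers had log2 differences within -0.22 to 0.44 in early against control, and 0 of them was called. In bulk tissue, fewer cells of a type and less RNA per cell cannot be told apart.

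Muscle induced early carried more mRNA for much of this machinery than control muscle of the same age. Of the 47 genes, 10 rose and 0 fell: Ssr2, Spcs2, Spcs3, Sec11c, Ddost, Ostc, Dpagt1, Alg12, Gmppb and Uggt1. The background for a rise was 0.928% of all genes tested, and for a fall 0.258%. The median log2 difference was 0.55 (1.46-fold) over the 47 genes and -0.03 over all genes tested. Every early array lay above every control array for 30 of the 47, where the background was 9.63%, and below for 0, where it was 13.9%. At an unadjusted p under 0.05, 27 were higher (background 8.64%) and 1, Mpi, lower (9.89%). A positive difference was found for 43 of the 47 (background 45.9%). The filter on dim probe sets matters for 1 of the 10: Alg12 passed it through the early arrays alone, so its place among the calls was partly fixed by the filter.

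In late muscle no gene of the machinery passed the test. Of the 47 genes 0 were called against control by limma in either direction, where the background was 0.0928% higher and 0.113% lower. At an unadjusted p under 0.05, 2 were higher and 4 lower, against a background of 8.82% and 8.44%. The late arrays lay above every control for 4 genes, Srprb, Sec63, Spcs2 and Stt3b (background 16%), and below for 8 (14.9%), and 15 had a positive difference (51.2%). The median was -0.13, against 0.01 over all genes tested.

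Set directly against late muscle, early muscle was higher for 22 of the 47 genes and lower for 0, where the background was 5.31% higher and 6.23% lower. Of the 47, 31 had all early arrays above all late arrays and 0 the reverse (background 13.7% and 18.3%), and 41 had a positive difference (47%). At an unadjusted p under 0.05, 31 were higher and 0 lower (15.8% and 18.4%). The median was 0.73 (1.65-fold), against -0.03 over all genes tested.

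**Figure D1:**
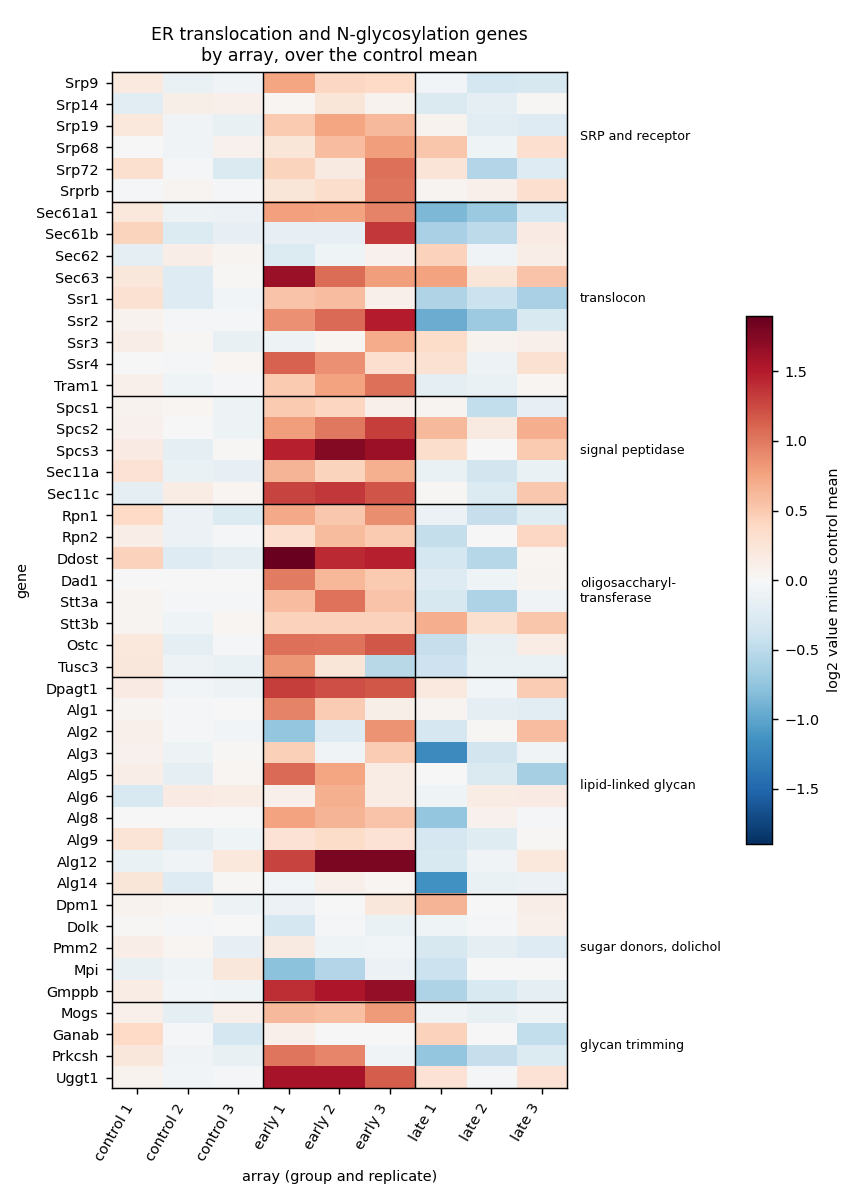
Each row is 1 of the 47 tested genes, grouped by role, and each column 1 array; colour is the log2 value minus that gene's control mean. The early columns are red for most rows, with a median of 0.58, 0.58 and 0.55 in early 1, 2 and 3, and the late columns lie near 0, with medians of -0.11, -0.13 and 0.02.

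The number of calls rested on single arrays, whereas the size of the shift moved little. In early against control it fell from 10 to 6, 0 and 3 without control 1, 2 or 3 and to 4 and 3 without early 1 or 2. Without early 3 it was 21, of which 20 were higher and Mpi lower. Over all genes the calls in the higher direction went from 90 to 35, 6, 12, 54, 19 and 965 in those same fits. The median of the 47 genes stayed between 0.51 and 0.65. In early against late the count was 14 without control 2, 12 and 8 without early 1 or 2, and 9 without late 2, against 22 with all arrays. The share of all genes higher was 1.79%, 1.4%, 1.02% and 0.849% in those fits, against 5.31%. With only the early and late arrays in the fit the count was 5, and the share 0.299%.

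The 10 genes that rose differed in how often the call was kept. Of 21 alternatives, it was kept in 20 for Spcs3 and Gmppb, 19 for Uggt1, 18 for Dpagt1, 16 for Ddost, 14 for Sec11c, 13 for Ostc, 11 for Ssr2 and 10 for Spcs2. Alg12 kept it in 15 of 17, since it fell below the filter in the others. None of the 10 kept it without control 2.

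Promoter letters are shown for 4 of the 10 genes that rose, those with an entry in the RefSeq promoter table (assembly GRCm38.p6), because these genes moved together. Of the 48 genes, 36 had an entry. Each stretch is the 250 bases before the annotated start, written 5′ to 3′ on the gene's strand. The capitals mark CCAAT and CCACG, in either orientation.
Spcs2, chr7:99858884-99859133, minus strand: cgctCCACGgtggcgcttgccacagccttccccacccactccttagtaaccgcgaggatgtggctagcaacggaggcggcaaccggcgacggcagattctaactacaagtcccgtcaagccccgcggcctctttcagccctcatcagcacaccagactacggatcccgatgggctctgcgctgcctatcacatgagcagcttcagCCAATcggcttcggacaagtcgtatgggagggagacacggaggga
Ddost, chr4:138304488-138304737, plus strand: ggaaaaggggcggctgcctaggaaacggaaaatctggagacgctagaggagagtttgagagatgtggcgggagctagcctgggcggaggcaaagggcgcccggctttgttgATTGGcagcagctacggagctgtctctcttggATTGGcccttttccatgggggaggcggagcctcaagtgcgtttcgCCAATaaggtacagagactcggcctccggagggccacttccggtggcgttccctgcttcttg
Alg12, chr15:88819319-88819568, minus strand: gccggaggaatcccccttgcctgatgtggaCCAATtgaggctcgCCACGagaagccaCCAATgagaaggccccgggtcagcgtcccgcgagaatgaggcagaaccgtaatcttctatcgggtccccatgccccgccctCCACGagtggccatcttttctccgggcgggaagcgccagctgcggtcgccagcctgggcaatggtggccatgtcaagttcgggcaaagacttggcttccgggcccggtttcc
Uggt1, chr1:36244303-36244552, minus strand: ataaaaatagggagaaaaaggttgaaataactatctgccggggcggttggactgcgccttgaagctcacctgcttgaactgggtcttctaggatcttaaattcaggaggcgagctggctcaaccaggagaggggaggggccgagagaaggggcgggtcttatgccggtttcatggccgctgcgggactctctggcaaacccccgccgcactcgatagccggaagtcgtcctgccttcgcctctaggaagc

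The ER stress response element is a motif bound by factors of the unfolded protein response, made of CCAAT, 9 free bases and CCACG, so it contains both short motifs. Searched on both strands, it was found as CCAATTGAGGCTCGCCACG in the promoter of Alg12, from base 220 to base 202 before the start. That made 1 of 36 genes with an entry (2.78%), against 0.13% of 27025 genes in the table. The share of 2.78% rests on this 1 match, in the dim gene that passed the filter through the early arrays alone. An excess over all genes was not tested. The second form, ATTGG and CCACG with 1 free base between them, which also contains both, was in 0 of 36 (0.037% of all genes), and TGACGTG, the core of another such element, was in 1, Mogs (1.85% of all genes). The short CCACG was in 14 of 36 (38.9%, against 31% of all genes) and CCAAT in 15 of 36 (41.7%, against 37.5%). These are matches of letters in a window of 250 bases and show no binding.

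The signal recognition particle and its receptor showed positive early differences in all 6 genes tested, and 0 of the 6 was called against control. The list median was 0.54, with single differences from 0.11 to 0.62. Srp19, a protein that helps assemble the particle, read 11.52, 11.25 and 11.18 in control, 11.82, 12.06 and 11.93 in early and 11.39, 11.11 and 11.07 in late arrays. Its early arrays lay above both other groups. The early difference from control was 0.62 ± 0.15 (adjusted p = 0.115), and that from late, 0.74 ± 0.15, passed (adjusted p = 0.0251).

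Srp9, part of the domain that pauses translation, read 12.09, 11.78 and 11.83 in control, 12.65, 12.29 and 12.28 in early and 11.85, 11.56 and 11.60 in late arrays. It too was higher in early than in late muscle (0.74 ± 0.16, adjusted p = 0.0297), and differed from control by 0.51 ± 0.16 (adjusted p = 0.173). Srp68 and Srp72, which form the core of the larger domain, differed from control by 0.54 ± 0.20 and 0.55 ± 0.28. Srp14, the partner of Srp9, differed by 0.11 ± 0.15. Late differences in this group ran from -0.23 to 0.26, and 0 of them was called.

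Srprb, the membrane anchor of the particle's receptor, differed by 0.53 ± 0.21 on the probe set used, the brightest of its 3. The other 2 gave 1.29 ± 0.14 and 1.51 ± 0.23 over control when each passing probe set was tested on its own (adjusted p = 0.00814 and 0.0259). Those 2 also put early above late muscle, by 1.42 ± 0.14 and 1.78 ± 0.23 (adjusted p = 0.00553 and 0.0078). The probe set used gave 0.37 ± 0.21 there and was not called. The size of the early difference of Srprb, from control or from late muscle, is therefore not settled by these probe sets.

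In the channel and its partners, 8 of 9 genes had positive early differences and Ssr2 rose. The list median was 0.76. Ssr2, a subunit of the translocon-associated protein complex that sits beside the channel, read 9.98, 9.87 and 9.87 in control, 10.78, 10.99 and 11.40 in early and 8.97, 9.22 and 9.62 in late arrays. All early arrays were above the controls and all late arrays below them. It rose by 1.15 ± 0.21 (2.22-fold, adjusted p = 0.0394) and stood 1.79 ± 0.21 above late muscle (3.45-fold, adjusted p = 0.00578). The call against control was lost in the fit of only 2 groups, after quantile normalization, with no filter and with replicate number as a block. The late difference from control was -0.64 ± 0.21 (adjusted p = 0.189).

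Sec61a1, the channel itself, had the same ordering of groups on the probe set used. It read 10.72, 10.43 and 10.41 in control, 11.30, 11.28 and 11.46 in early and 9.67, 9.81 and 10.18 in late arrays. Its early difference from control was 0.83 ± 0.17 (adjusted p = 0.0631) and its late difference -0.64 ± 0.17 (adjusted p = 0.136), neither of which passed. Early exceeded late muscle by 1.46 ± 0.17 (2.76-fold, adjusted p = 0.00578). Of its other 4 passing probe sets, 2 were called higher in early against control, by 1.02 and 1.45, and another differed by 0.71. The remaining one, with means of 3.98 in control and 5.30 in early muscle, passed the floor of 5 through the early arrays alone and was also called (adjusted p = 0.0202), so its difference has no firm size. In late against control these 4 gave -0.45, 0.40, -0.13 and -0.97 in the same order, and none was called. The direction of the late difference thus depends on the probe set.

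Ssr1, the companion of Ssr2, read 9.35, 8.82 and 9.01 in control, 9.60, 9.65 and 9.16 in early and 8.49, 8.65 and 8.44 in late arrays. It was higher in early than in late muscle (0.94 ± 0.19, adjusted p = 0.0239), while early and control arrays overlapped (0.40 ± 0.19). Its other 2 passing probe sets gave 1.02 (adjusted p = 0.0387) and 1.40 (adjusted p = 0.109) over control, and the mean of the 3 gave 0.94, so the size depends on the probe set. Tram1, a membrane protein that helps chains leave the channel, read 10.34, 10.16 and 10.22 in control, 10.74, 11.01 and 11.28 in early and 10.05, 10.12 and 10.28 in late arrays. It exceeded late muscle by 0.86 ± 0.16 (adjusted p = 0.0205) and control by 0.77 ± 0.16 (adjusted p = 0.0685).

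Sec63, which recruits the lumenal chaperone BiP to the channel, had the largest difference in the group that bore no call, 1.17 ± 0.24 (adjusted p = 0.0645). It was also 0.52 ± 0.24 above control in late muscle. The other passing probe sets of Sec63 gave 1.16 (adjusted p = 0.0391), 0.19, 1.66 and 0.36 over control in early muscle, so the size depends on the probe set. Its partner Sec62 differed by -0.08 ± 0.17 in early and 0.17 ± 0.17 in late muscle. The other passing probe sets of Sec62 gave 0.07, 0.59 and -0.45 in early against control, and none was called. Ssr4 differed by 0.76 ± 0.21 in early muscle. For Sec61b and Ssr3, early 3 alone was above all controls: Sec61b stood at 11.39, 11.39 and 12.89 in early 1, 2 and 3.

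Signal peptidase was the group with the highest list median, 1.04, and 3 of its 5 genes rose. Spcs3, an accessory subunit needed for the enzyme's activity, read 9.65, 9.33 and 9.52 in control, 10.98, 11.25 and 11.13 in early and 9.83, 9.50 and 10.00 in late arrays. The early arrays stood clear of both other groups. It rose 3.07-fold (1.62 ± 0.17, adjusted p = 0.00586) and was 1.34 ± 0.17 above late muscle (adjusted p = 0.00578). Without control 2 the adjusted p against control was 0.0504, at 1.53.

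Sec11c, 1 of the paired catalytic subunits, read 9.89, 10.20 and 10.09 in control, 11.34, 11.40 and 11.26 in early and 10.08, 9.80 and 10.57 in late arrays. It rose by 1.28 ± 0.20 (2.42-fold, adjusted p = 0.0240) and exceeded late muscle by 1.19 ± 0.20 (adjusted p = 0.0149). Its other passing probe set, dim at a control mean of 4.43, gave 0.78 ± 0.26 over control (adjusted p = 0.204) and 0.29 over late muscle. The other catalytic subunit, Sec11a, read 10.73, 10.34 and 10.31 in control, 11.11, 10.88 and 11.14 in early and 10.34, 10.11 and 10.33 in late arrays. Its difference of 0.58 ± 0.16 from control did not pass (adjusted p = 0.137), and that of 0.78 ± 0.16 from late did (adjusted p = 0.0251). The difference between these paralogues was not tested.

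Spcs2, an accessory subunit, read 11.33, 11.25 and 11.15 in control, 12.04, 12.24 and 12.56 in early and 11.86, 11.41 and 11.93 in late arrays. It rose by 1.04 ± 0.19 (2.05-fold, adjusted p = 0.0394). Like that of Ssr2, this call was lost in the fit of only 2 groups, after quantile normalization, with no filter and with the replicate block. Of the fits without 1 late array, Spcs2 lost the call without late 1 or 3, and Ssr2 without late 2. The other probe set of Spcs2 gave 1.28 ± 0.20 (adjusted p = 0.0294). The late arrays also lay above all controls, by 0.49 ± 0.19 without passing (adjusted p = 0.242), and early exceeded late by 0.55 ± 0.19 (adjusted p = 0.0821). Spcs1 differed by 0.34 ± 0.17 in early muscle.

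**Figure D2:**
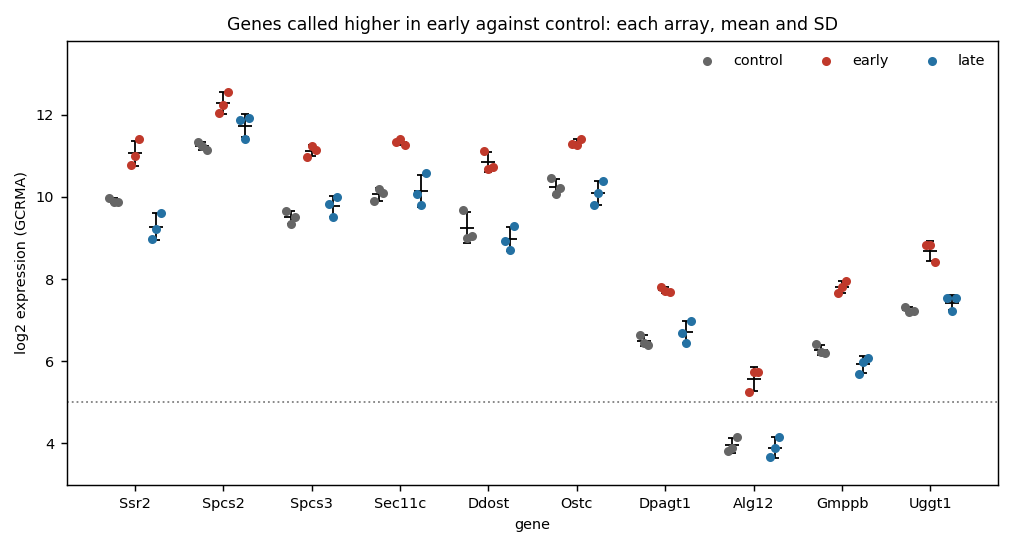
Log2 expression of the 10 genes that rose in early against control, with a point for each array and bars for the mean and SD (n = 3); the dotted line is the filter's floor of 5. The early points lie above all control and late points for each of the 10 genes, and Alg12 is under the floor in control and late arrays.

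Oligosaccharyltransferase had positive early differences in all 8 genes tested, with a median of 0.71, and 2 of them rose. Ddost, a structural subunit, read 9.68, 9.0 and 9.06 in control, 11.12, 10.67 and 10.73 in early and 8.92, 8.70 and 9.28 in late arrays. Early arrays were well above the others, which overlapped. The rise was 3.02-fold (1.59 ± 0.23, adjusted p = 0.0177), and early exceeded late muscle 3.66-fold (1.87 ± 0.23, adjusted p = 0.00578). Ostc, a subunit that links the enzyme to the channel, read 10.45, 10.07 and 10.21 in control, 11.29, 11.27 and 11.42 in early and 9.80, 10.10 and 10.39 in late arrays. It rose by 1.09 ± 0.18 (2.12-fold, adjusted p = 0.0288) and exceeded late muscle by 1.23 ± 0.18 (adjusted p = 0.0104).

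The catalytic subunits Stt3a and Stt3b serve different complexes, Stt3a working on chains as they pass the channel and Stt3b largely on sites that were skipped. Stt3a read 10.29, 10.21 and 10.22 in control, 10.82, 11.27 and 10.78 in early and 9.93, 9.66 and 10.18 in late arrays. Its early difference from control was 0.72 ± 0.18 (adjusted p = 0.120), its late difference -0.32 ± 0.18, and early exceeded late by 1.03 ± 0.18 (adjusted p = 0.0181). Its other passing probe sets gave 1.68 (adjusted p = 0.0269) and 0.90 (adjusted p = 0.0802) over control. Stt3b read 11.61, 11.47 and 11.59 in control, 11.99, 12 and 11.99 in early and 12.25, 11.86 and 12.08 in late arrays. Both induced groups lay above the controls, by 0.44 ± 0.14 in early (adjusted p = 0.165) and 0.50 ± 0.14 in late muscle (adjusted p = 0.138), and early differed from late by -0.07 ± 0.14. The difference between these paralogues was not tested either.

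Rpn1, which presents substrates to the enzyme, read 12.18, 11.68 and 11.53 in control, 12.51, 12.31 and 12.68 in early and 11.68, 11.36 and 11.56 in late arrays. Dad1, a small subunit, read 10.95, 10.94 and 10.95 in control, 11.93, 11.58 and 11.44 in early and 10.70, 10.87 and 11.00 in late arrays. Both were higher in early than in late muscle, by 0.97 ± 0.20 (adjusted p = 0.0251) and 0.80 ± 0.16 (adjusted p = 0.0235). Against control they differed by 0.70 ± 0.20 and 0.71 ± 0.16, neither of which passed. Rpn2 differed by 0.47 ± 0.21 in early muscle. Tusc3, an oxidoreductase subunit of the Stt3b complex, differed by 0.18 ± 0.30, with early arrays at 8.31, 7.70 and 6.95.

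In assembly of the lipid-linked glycan 2 of 10 genes rose, Dpagt1 and the dim Alg12; 9 had positive early differences and the median was 0.41. Dpagt1, which starts the glycan on dolichol and is the target of tunicamycin, read 6.65, 6.45 and 6.40 in control, 7.81, 7.72 and 7.68 in early and 6.69, 6.45 and 6.98 in late arrays. It rose by 1.24 ± 0.16 (2.36-fold, adjusted p = 0.0117) and exceeded late muscle by 1.03 ± 0.16 (adjusted p = 0.0123).

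Alg12, a mannosyltransferase that acts in the ER lumen, is the gene whose promoter held the stress element. It read 3.82, 3.88 and 4.16 in control, 5.24, 5.74 and 5.74 in early and 3.66, 3.88 and 4.16 in late arrays, so it was dim everywhere. The fitted rise was 1.62 ± 0.20 (adjusted p = 0.00913). With values under the floor of 5 set to 5 it was 0.57 and not called (adjusted p = 0.130), and early against late was also 0.57 then (adjusted p = 0.0469), so its size is uncertain.

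Alg8, a glucosyltransferase of the late lumenal steps, read 6.30, 6.30 and 6.32 in control, 7.07, 6.95 and 6.85 in early and 5.57, 6.39 and 6.28 in late arrays. Alg5, which makes the glucose donor for those steps, read 7.62, 7.32 and 7.52 in control, 8.57, 8.23 and 7.63 in early and 7.49, 7.21 and 6.85 in late arrays. Both exceeded late muscle, by 0.88 ± 0.21 (adjusted p = 0.0355) and 0.96 ± 0.25 (adjusted p = 0.0455), and neither passed against control (0.65 ± 0.21 and 0.66 ± 0.25). Alg3, a lumenal mannosyltransferase, read 7.67, 7.48 and 7.60 in control, 8.03, 7.52 and 8.06 in early and 6.38, 7.23 and 7.52 in late arrays, with a late difference of -0.54 ± 0.28 (adjusted p = 0.357).

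The remaining assembly genes showed smaller or uneven values. Alg1, the first mannosyltransferase, differed by 0.51 ± 0.20 in early muscle, and Alg6 and Alg9 by 0.30 ± 0.20 and 0.30 ± 0.16. Alg14, which anchors the second step, differed by 0.03 ± 0.27. Alg2 spread widely among early arrays, at 8.14, 8.62 and 9.73, with a mean difference of -0.04 ± 0.38.

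Supply of the sugar donors and of dolichol phosphate had 1 gene of 5 that rose, and the median was 0.01. Gmppb, which makes the mannose donor GDP-mannose, read 6.41, 6.22 and 6.19 in control, 7.67, 7.81 and 7.95 in early and 5.69, 5.99 and 6.09 in late arrays. The early arrays were highest and the late arrays all under the controls. It rose 2.90-fold (1.54 ± 0.15, adjusted p = 0.00511) and exceeded late muscle 3.70-fold (1.89 ± 0.15, adjusted p = 0.00187). The late difference from control was -0.35 ± 0.15 (adjusted p = 0.286). Without control 2 the early rise was 1.51 and the adjusted p 0.0504.

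Mpi, which makes mannose 6-phosphate from a glycolytic sugar, read 9.87, 9.93 and 10.22 in control, 9.22, 9.45 and 9.89 in early and 9.60, 10.01 and 10.00 in late arrays. Its early difference of -0.49 ± 0.21 was the lowest of the 47 and did not pass (adjusted p = 0.253). The next enzyme, Pmm2, differed by 0.01 ± 0.14 in early and -0.24 ± 0.14 in late muscle. In early muscle Dpm1, which loads mannose onto dolichol phosphate, differed by 0.04 ± 0.19, and Dolk, dolichol kinase, by -0.16 ± 0.13. The other passing probe set of Dpm1 gave -0.71 ± 0.35 in early against control (adjusted p = 0.325).

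Trimming of the glycan was represented by 4 genes, of which 1 rose, with a median of 0.65. Uggt1, which adds a glucose back to unfolded glycoproteins so that lectin chaperones bind them again, read 7.33, 7.21 and 7.23 in control, 8.82, 8.82 and 8.41 in early and 7.53, 7.22 and 7.53 in late arrays. It rose 2.69-fold (1.43 ± 0.16, adjusted p = 0.00750) and exceeded late muscle by 1.26 ± 0.16 (adjusted p = 0.00612). Its other passing probe set gave 0.99 ± 0.37 over control (adjusted p = 0.244). Mogs, the first glucosidase, read 7.67, 7.39 and 7.67 in control, 8.20, 8.15 and 8.39 in early and 7.51, 7.43 and 7.51 in late arrays. It exceeded late muscle by 0.76 ± 0.14 (adjusted p = 0.0187), and its difference of 0.67 ± 0.14 from control did not pass (adjusted p = 0.0631).

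Glucosidase II has a catalytic and a regulatory subunit. The catalytic subunit Ganab differed by 0.04 ± 0.25 in early muscle. The regulatory subunit Prkcsh read 8.51, 8.22 and 8.15 in control, 9.31, 9.22 and 8.22 in early and 7.56, 7.86 and 8.03 in late arrays, so early 3 lay within the control range. It exceeded late muscle by 1.10 ± 0.28 (adjusted p = 0.0437) and differed from control by 0.62 ± 0.28 (adjusted p = 0.283). With replicate number as a block over all 9 arrays, the adjusted p against late muscle was 0.0545.

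**Figure D3:**
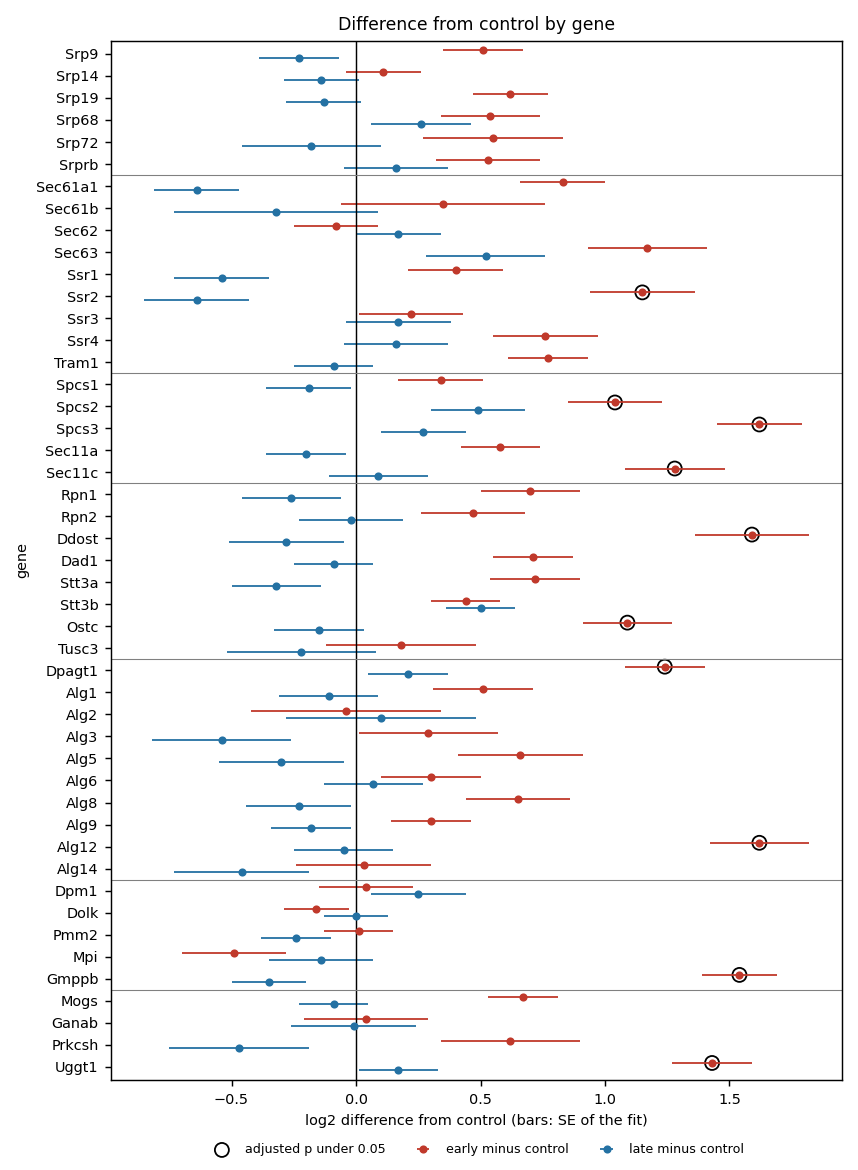
Log2 difference from control for each of the 47 genes, early in red and late in blue, with bars for the SE of the fit; rings mark the 10 calls, all of them early. Early points run from -0.49 to 1.62 and late points from -0.64 to 0.52; both comparisons use the same 3 control arrays.

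The probe set chosen for a gene bears on which genes pass. The 47 genes had 84 passing probe sets, and each was tested on its own among all 16048. In early against control 19 were higher and 0 lower, in 15 genes, where the background was 0.879% higher. Those 19 include the probe set of Alg12 and the dim one of Sec61a1 (control mean 3.98), which passed the filter through the early arrays alone. Both calls were thus partly fixed by the filter, here and in early against late. Beside the 10 genes above, Sec61a1, Sec63, Srprb, Ssr1 and Stt3a then had at least 1 probe set called. These same 5 were added when the passing probe sets of a gene were averaged, and the Sec61a1 average includes its dim probe set. In early against late 39 of 84 were higher, where the background was 5.15%, and in late against control 0 of 84 (0.0935%). Of the 37 passing probe sets not chosen, 32 had the sign of the chosen one in early against control.

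Other genes of the same pathway had a lower median, and the difference between the lists was not tested. In a list of further translocation and N-glycosylation genes, 2 of 22 tested rose in early against control and 0 fell, with a median of 0.32. The background was 0.928% for a rise and 0.258% for a fall. Pgm3, which acts in the synthesis of the N-acetylglucosamine donor, rose by 1.85 ± 0.26 (adjusted p = 0.0158), from a mean of 5.36 in control to 7.21 in early muscle. Gmppa, the regulatory partner of Gmppb, rose by 1.41 ± 0.27 (adjusted p = 0.0472). In late against control 0 of the 22 was called, and in early against late 6 were higher and 1 lower (background 5.31% and 6.23%).

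Both neighbouring lists of the secretory pathway had medians above that of the machinery. ER lumenal chaperones had 12 of 15 genes higher in early against control with a median of 1.78. ER to Golgi traffic genes had 9 of 27 higher with a median of 0.59, where the background was 0.928% for both lists. The 47 genes described here, at 10 and 0.55, were thus near the traffic genes and below the chaperones in median; the difference between lists was not tested. In late muscle the medians were 0.23 for the chaperones and 0.18 for traffic, with 0 calls in either.

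**Figure D4:**
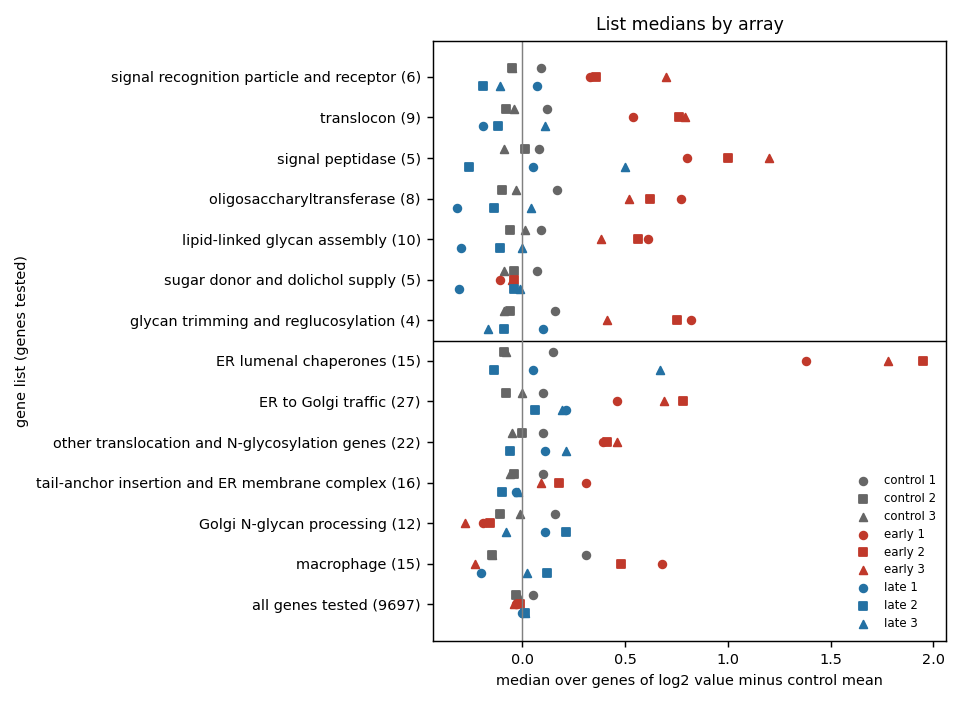
Median over each gene list of the log2 value minus the control mean, 1 point per array; colour gives the group and shape the replicate number. Above the line are the 7 role groups, which except for sugar donor supply lie at 0.33 or more in every early array; below it are neighbouring lists, macrophage markers and all genes tested.

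Markers of other cell types moved with the early arrays in part. Of 15 macrophage markers 0 was called in early against control, and 13 had positive differences (background 45.9%). The median of the 15 markers was 0.68, 0.48 and -0.23 in early 1, 2 and 3. Their summed signal, as log2, ran from 14.10 to 14.54 in control and from 14.02 to 15.40 in early arrays. The 47 genes had medians of 0.58, 0.58 and 0.55 in those arrays. In early against late 1 of the 15 macrophage markers was higher (background 5.31%). Of 10 B and plasma cell markers only 2 passed the filter on dim probe sets, with summed signal from 10.61 to 11.20 in control and 7.50 to 10.98 in early arrays, and 0 was called. Medians were 0.02 for fibroblast, -0.98 for adipocyte and -0.23 for endothelial markers in early against control, with 0 calls among 7, 5 and 8 genes. The part of any of these cell types in the rises was not tested.

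Single genes were less even than the medians across the early arrays. Early 1, 2 and 3 stood above every control for 36, 35 and 36 of the 47 genes. In 4 genes, Sec61b, Ssr3, Alg2 and Dpm1, early 3 alone did so. In 3 others, Ssr1, Tusc3 and Prkcsh, early 1 and 2 did so and early 3 did not. The share over all genes was not worked out for any of these counts of single arrays, so they describe the arrays only.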

How the data were processed

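The deposited log2 values are GCRMA output per the submitters' processing notes. No version or setting is given in the sources used here. GCRMA corrects background by probe sequence and normalizes arrays to one another, which narrows the spread of dim probe sets and hides a shift common to all genes. Of 45101 probe sets, 34945 named 1 gene. Those above 5 on at least 3 arrays (16048) were kept, and the brightest per gene, by mean over 9 arrays, was tested (9697 genes). Groups came from the sample titles.

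One model of 3 group means was fitted with limma 3.58.1 in R 4.3.3 (6 residual and 2.84 prior degrees of freedom). With 3 arrays a side, the smallest exact p is 0.1. Sample titles carry a replicate number and an identifier of unstated meaning, by which late 3 stands with the early and control arrays and apart from late 1 and 2. Without late 3, early against late had 17 calls (3.36% of all genes higher) and late against control 0. The design text gives 3 mice per group; p-values measure the spread between these arrays, and 3 per group limits precision. Same-numbered early and late arrays deviated together weakly across genes (correlations 0.168, 0.201 and 0.16). Same-numbered early and control arrays gave 0.35, 0.11 and -0.0391, and late and control arrays 0.0847, -0.165 and -0.11. No label says what these numbers share, so the main fit treated all arrays as unpaired. Replicate number entered only in an alternative fit, as a block over all 9 arrays that also ties in the same-numbered control arrays. The fit was tested on simulated data. Alternatives covered the filter, the probe set taken, normalization, weights, the block and leaving out arrays.

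The genes and lists were chosen with earlier results of these data known. Values per array are given for every gene called in a comparison and, in each role group, for the 2 with the smallest early and the 1 with the smallest late p against control; other genes are named only with differences or single arrays.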

Additional observations from a re-analysis of the deposited data

Results flagged for a closer look

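The response of 22 genes differed between the 2 induced groups by the test of early against late itself (limma, adjusted p under 0.05), and all 22 were higher in early muscle. Late mice were also older, so age and timing of induction cannot be told apart. The log2 differences were 1.89 for Gmppb, 1.87 for Ddost, 1.79 for Ssr2, 1.46 for Sec61a1, 1.34 for Spcs3, 1.26 for Uggt1, 1.23 for Ostc and 1.19 for Sec11c. They were 1.10 for Prkcsh, 1.03 for both Stt3a and Dpagt1, 0.97 for Rpn1, 0.96 for Alg5, 0.94 for Ssr1, 0.88 for Alg8 and 0.86 for Tram1. Lower values were 0.80 for Dad1, 0.78 for Sec11a, 0.76 for Mogs and 0.74 for both Srp9 and Srp19. Alg12 gave 1.67, but its control and late arrays were under the floor of 5, it passed the filter through the early arrays alone, and with values under 5 set to 5 it gave 0.57. Of these 22, Sec61a1, Ssr2, Ddost and Gmppb kept the call under all 21 alternatives.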

How the results depend on the processing

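In early against control the number of genes called was 5 with no filter on dim probe sets (0.258% of all genes higher) and 34 with array weights (18.4%), 1 of them, Mpi, lower, against 10 (0.928%). Estimation of the weights stopped before it converged. Leaving out 1 array gave 0 to 21 calls, where 0.0621% to 9.97% of all genes were higher, and a median of 0.51 to 0.65. Under the other alternatives the number called was 7 to 15 (0.547% to 1.14% of all genes higher). In late against control it was 0 throughout, except for 3 with array weights (Sec61a1 and Ssr2 lower, Stt3b higher), where the median was -0.05. With those weights 6.1% of all genes were higher in late against control, against 0.0928% in the main fit. In early against late the number called was 5 with only those 2 groups fitted (0.299% of all genes higher), against 22 (5.31%). Without 1 array it was 8 to 26 (0.849% to 15.9%). Some small late differences that were not called changed sign: Alg12 was 0.33 after quantile normalization, and between -0.19 and 0.06 without 1 array; Ostc was 0.03 with array weights and between -0.29 and 0.00 without 1 array; Alg8 lay between -0.38 and 0.03 and Sec11c between -0.12 and 0.26. Stt3b in early against late was 0.02 with array weights and between -0.17 and 0.03 without 1 array. The cause was not tested. With replicate number as a block the counts were 7, 0 and 21 in the 3 comparisons, in the order given. The shares of all genes higher were then 0.567%, 0.0309% and 5.57%. In early against late the block changed no call except that of Prkcsh. Testing every passing probe set was chosen after the data were seen.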

Other observations

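Neighbouring routes and later steps are given by their counts, with no test between lists. Of 16 genes for tail-anchor insertion and the ER membrane complex, which place proteins into the ER membrane by routes beside the Sec61 channel, 0 was called in early against control, with a median of 0.10. Of 12 genes for processing of N-glycans in the Golgi, 1 rose (background 0.928%) and 9 had negative differences, with a median of -0.28. Over all 9697 genes tested, 5246 had negative differences and the median was -0.03. The gene that rose, Mgat2, an N-acetylglucosaminyltransferase, was named after its value was seen (1.09 ± 0.18, adjusted p = 0.0299 by limma).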
